A study of Ascaris suum with 28 samples.

Results

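A group of 102 genes, out of 15399 gene identifiers measured in the pig roundworm Ascaris suum, was abundant in the oocyte, all but missing from the cleaving embryo and abundant again in the first larval stage. The genes were chosen by their RPKM (a read number scaled for the length of the gene and the depth of the library): 10 or more in the oocyte, 2 or less in both the 96 h and the 116 h embryo, and 20 or more in L1 larvae. Those 4 columns set the membership, so their values are given as a description and were not tested. The other 24 columns of the table were not used in the choice. The table does not pair its identifiers with gene names, so the genes are given by identifier and no role is stated for any of them.

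An animal egg is loaded with maternal RNA made in the ovary, which is cleared as the embryo takes over its own transcription. An RNA that is cleared can be made again later from the embryo's own copy of the gene, and a level alone does not tell an old molecule from a new one. In a polysome gradient, RNAs with many ribosomes travel into the heavy fractions, RNAs with few ribosomes lie in the middle and RNAs without ribosomes stay in the free fractions. Poly(A) selection keeps RNAs by their tail, so a level in such a library depends on the tail as well as on the amount of RNA.

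All material came from a wild North American population of the worm, in pools drawn from many females. The 28 samples of the series included 18 with a column in the table, and the other 10 were not analysed here. Poly(A) RNA was read from oocytes with wall, from zygotes of uterus regions 1, 2, 3 and 4, from embryos after 24 h (1 cell), 46 h (1-2 cells), 64 h (2-4 cells), 96 h (10-26 cells) and 116 h (32-64 cells) and 7 days (about 256 cells) of incubation at 30 °C, and from L1 and L2 larvae. Gradients with heavy, middle and free fractions came from region 4 zygotes (day 0) and from embryos of day 1 (1 cell), day 3 (4-8 cells), day 5 (32-64 cells) and day 7 (about 256 cells). No group carried a treatment or a mutation. Each stage had 1 poly(A) library and each day 1 gradient, so differences between single libraries have no replicate check. The oocyte and 64 h columns were taken as poly(A) libraries by inference, since their names alone do not settle it. Column sums ran between 311996 and 453746 RPKM for the poly(A) libraries and between 236086 and 918364 RPKM for the fractions. Sequencing depth is unknown, values carry 1 decimal, and a gene at 0.0 is said to be listed at 0.

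Few genes met all the conditions. Of 5958 genes at RPKM 10 or more in the oocyte, 799 (13.4%) were at 2 or less at 96 h and 116 h, and 12.8% of those reached RPKM 20 in L1. From the other end, 599 genes had the low values at 96 h and 116 h and RPKM 20 or more in L1, and 17.0% of them were members. Of the remainder, 157 had an oocyte RPKM of 1 or more but under 10 and 340 were under 1. Genes lay close to the limits on both sides. The lowest oocyte value inside was 10.1 for ASU_08432, and just outside lay ASU_05057 and ASU_01124, both at 9.2. ASU_01674 and ASU_08432 were inside with 2.0 at 96 h, while ASU_14327 was outside with 2.1 at 96 h and ASU_10259 with 2.1 at 116 h. ASU_00975 was the lowest inside for L1, at 20.2, and ASU_03768 was outside at 19.4. Scaling the poly(A) columns by median ratios kept all 102 genes and added others to give 107. Quantile normalization gave 50 genes, of which 48 were members.

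Loss was spread from the uterus to 96 h, and most of it preceded 96 h. The median member RPKM was 32.7 in the oocyte, 18.5, 18.9, 21.75 and 21.8 in uterus regions 1, 2, 3 and 4, 9.15 at 24 h, 7.2 at 46 h, 3.05 at 64 h, 0.8 at 96 h and 0.5 at 116 h. Median levels within the uterus were thus close to each other, and the steepest single step on the fold scale before the gap came between 64 h and 96 h, a step whose end was set by the choice of genes. At 24 h, 90 of 102 members (88.2%) were lower than in region 4, as were 42.1% of all genes. At 46 h, 81 (79.4%) were lower than at 24 h, and at 64 h, 98 (96.1%) were, where all genes had 52.3% and 66.0%. Such falls are favoured over those of all genes by the choice, through its oocyte floor and its limits at 96 h and 116 h. Over all 15399 genes the median was 5.0 in the oocyte, 8.0 in region 4, 8.4 at 24 h, 5.3 at 64 h, 4.1 at 96 h and 3.3 at 116 h.

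**Figure D1:**
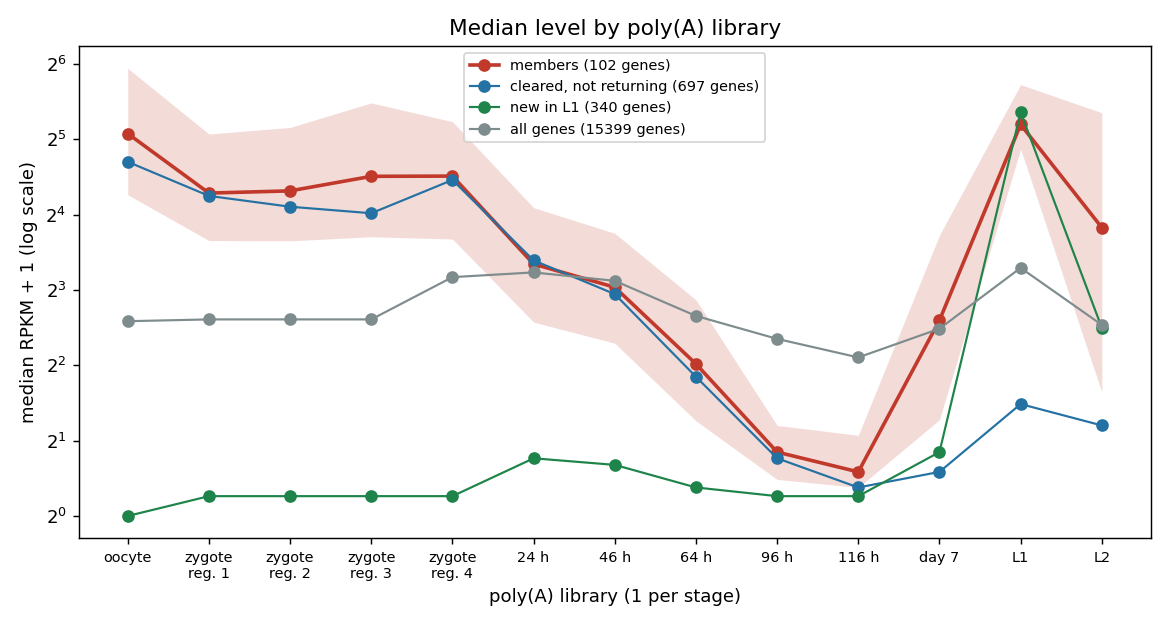
Median RPKM + 1 on a log scale in each of the 13 poly(A) libraries for the 102 members (red, with the band from lower to upper quartile), 697 genes cleared and not returning, 340 genes new in L1 and all 15399 genes. Members follow the cleared genes from the oocyte to 116 h and reach a median of 5.05 on day 7, 35.65 in L1 and 13.2 in L2; the oocyte, 96 h, 116 h and L1 points were used to choose the 3 smaller lists.

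The time of loss was taken as the first library from which a member stayed at least 4-fold below its oocyte RPKM up to 116 h. By that measure 13 members (12.7%) were lost by uterus region 4, 31 more by 24 h, 17 by 46 h, 29 by 64 h and the last 12 by 96 h. So 44 had passed this limit by 24 h and 90 (88.2%) by 64 h. The limit is relative to the oocyte level and does not mean absence. ASU_03733, past it by 24 h, had 304.6 RPKM in the oocyte and still 35.4 at 24 h. For comparison, 697 genes met the same oocyte and gap conditions and stayed under RPKM 20 in L1. They are called cleared and not returning by that limit alone, and 112 of them (16.1%) were at RPKM 10 or more in L1. Of these cleared genes 12.3% were lost by region 4, 37.0% by 24 h, 53.1% by 46 h and 83.1% by 64 h, beside 12.7%, 43.1%, 59.8% and 88.2% of the members. Step by step the cleared genes were also close to the members. Lower at 24 h than in region 4 were 89.67% of them, beside 88.2% of members. Lower at 46 h and at 64 h than at 24 h were 82.93% and 94.26%, beside 79.4% and 96.1% of members. With a 2-fold limit in place of the 4-fold one, 40 members were lost by region 4.

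Members did not all start at their highest level in the oocyte. In at least 1 of the 4 uterus regions 41 of 102 exceeded the oocyte level, and 11 reached at least 2-fold of it. Setting the highest of 4 libraries against 1 favours such an excess, and its share over all genes was not computed. ASU_11533 had an RPKM of 119.1 in the oocyte, 383.5, 190.6, 126.9 and 130.5 in regions 1, 2, 3 and 4, 60.4 at 24 h, 48.7 at 46 h, 26.0 at 64 h, 1.2 at 96 h and 1.7 at 116 h. Its level was highest in the first uterus region and lower in each next library from 24 h to 96 h. Between regions the members did not move one way: 49 of them (48.0%) were higher in region 4 than in region 3, as were 66.1% of all genes. Across members, oocyte and region 4 levels had a Spearman rho of 0.441 (102 genes from shared libraries, a description only).

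The 3 members highest in the oocyte were lost between uterus regions 3 and 4. ASU_04994 had an RPKM of 463.1 in the oocyte, 77.2, 136.3 and 220.8 in regions 1, 2 and 3, and was listed at 0 in region 4. ASU_11697 had 424.8 in the oocyte, 141.6, 275.3 and 451.6 in regions 1, 2 and 3, and 0.1 in region 4. ASU_02810 had 370.5 in the oocyte, 31.5, 63.4 and 107.7 in regions 1, 2 and 3, and 0.4 in region 4. All 3 were abundant in the first 3 regions, higher in each than in the one before, and nearly missing in the fourth. A search for the same pattern, made after these values were seen, found 1 more member, ASU_02812, with 70.3 in the oocyte, 17.5, 25.7 and 61.0 in regions 1, 2 and 3, and 0.2 in region 4. The gradient of day 0, labelled as region 4 zygotes, still held 2 of these RNAs. ASU_02810 had 1.5 RPKM in the heavy, 43.0 in the middle and 4.5 in the free fraction of day 0, and ASU_02812 had 0.7, 13.9 and 2.0. ASU_04994 and ASU_11697 were at 0.3 or less in each of the 3 fractions of day 0. Whether the day 0 gradient and the region 4 library hold zygotes of the same age was not tested.

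A further 6 members, also picked out after their values were seen, were at RPKM 2 or less in the first uterus region: ASU_01089, ASU_04566, ASU_10867, ASU_13081, ASU_14631 and ASU_15115. ASU_01089 had 10.6 in the oocyte, 0.2, 1.2, 3.5 and 0.7 in regions 1, 2, 3 and 4, and later 49.4 in L1 and 61.9 in L2. Its day 0 middle fraction held 23.6 RPKM, well above its region 4 library.

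**Figure D2:**
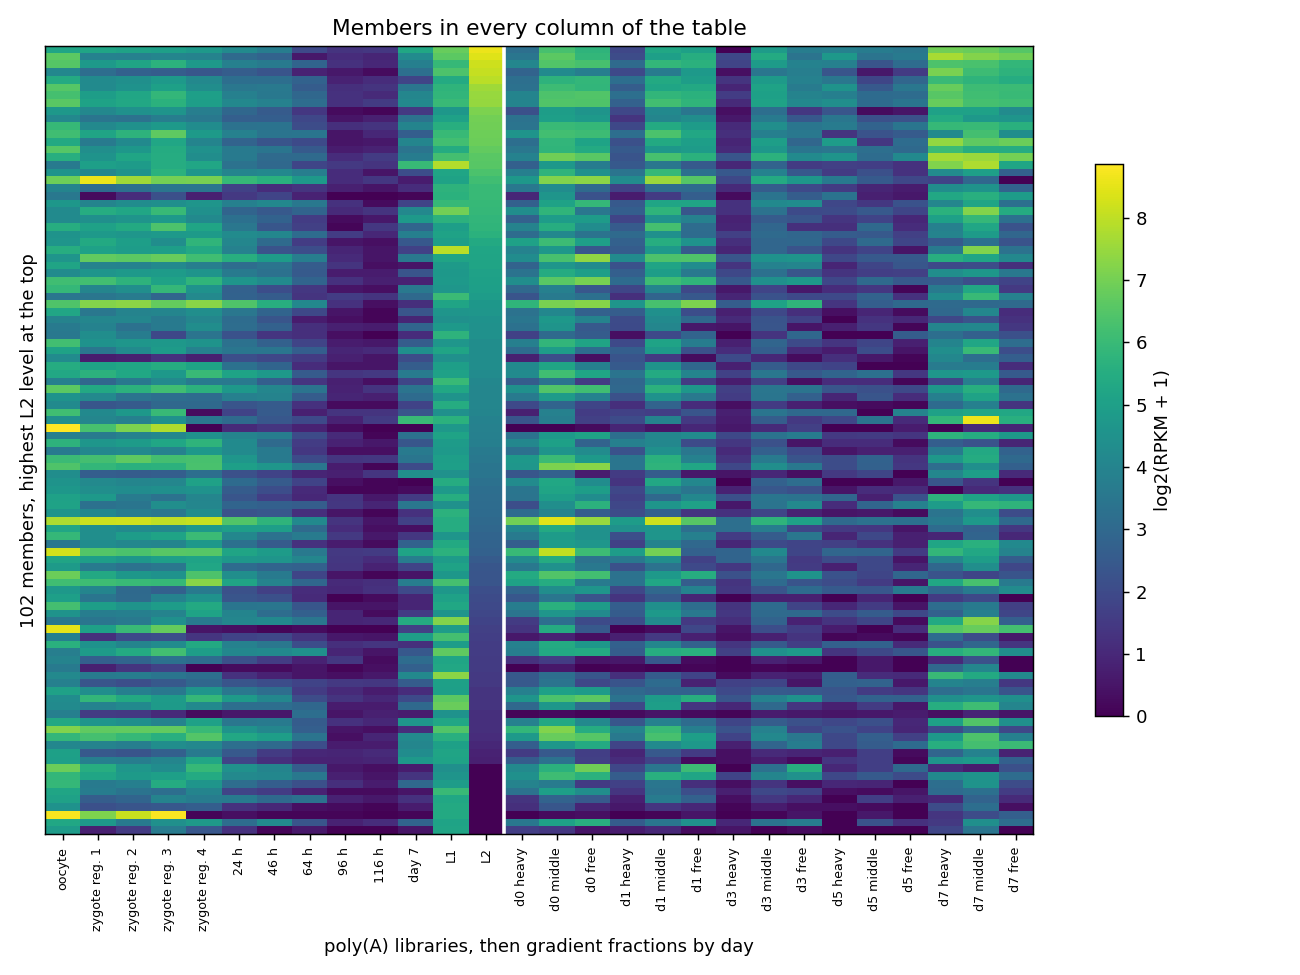
log2(RPKM + 1) of the 102 members, 1 row each, with the highest L2 level at the top, in the 13 poly(A) libraries (left of the white line, in order of development) and in the heavy, middle and free fractions of days 0, 1, 3, 5 and 7. The dark 96 h and 116 h columns are the gap, in which each member is at 2.0 or less by choice, and the L2 column runs between 389.8 and, for 9 members, 0.0.

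The gap could be looked at in the day 5 gradient, which was not used in the choice. It came from embryos of 32-64 cells, the same stage as the 116 h library that was used. Median member levels on day 5 were 1.9 RPKM in the heavy, 2.5 in the middle and 1.2 in the free fraction. All 3 fractions were at 2 or less for 29 members, and 16 members reached 10 or more in at least 1 fraction. Taken singly, the heavy, middle and free fractions were at 2 or less for 50.98%, 41.18% and 62.75% of members. The shares of all genes were 40.82%, 34.61% and 54.72%. At 10 or more were 12.75%, 0.98% and 7.84% of members, against 42.79%, 48.79% and 22.38% of all genes. For 82 of 102 members (80.4%) and 25.7% of all genes each of the 3 fractions of day 5 was lower than its counterpart on day 0. Counting genes at least 4-fold lower on day 5 than on day 0 on RPKM + 1, with RPKM 10 in either, found 37 members in the heavy fraction, where 4.6% of all genes met that rule. It found 78 in the middle fraction, against 9.94% of all genes, and 61 in the free fraction, against 11.5% of all genes. Cleared genes that did not return met the rule in 40.2%, 74.7% and 61.1% of cases in the heavy, middle and free fractions, beside 36.3%, 76.5% and 59.8% of members. The members' share was thus far above that of all genes in each fraction and close to that of the other cleared genes. The choice favours the excess over all genes, through its oocyte floor and its limit at 116 h. On day 0 the middle fraction was at RPKM 10 or more for 81.4% of members and 47.5% of all genes. Genes under 10 on both days could not meet the rule. In bulk material fewer cells holding an RNA and less RNA per cell cannot be told apart.

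The 2 members highest in any day 5 fraction were ASU_15327 and ASU_15406. ASU_15327 had 28.9 RPKM in the heavy, 1.7 in the middle and 7.7 in the free fraction of day 5, while its 116 h library gave 0.5. ASU_15406 had 25.5, 9.7 and 11.6 RPKM in the heavy, middle and free fractions, while its 116 h library gave 0.9. Both were thus above their poly(A) level in all 3 fractions and highest in the heavy one. Mean RPKM over the 3 day 5 fractions was at least 4-fold above the 116 h library for 17 members, 16.7% against 3.83% of all genes and 7.89% of the cleared genes. The 116 h level had been used to choose both lists. Fractions of day 5 also had larger column sums, of 631311 in the heavy, 918364 in the middle and 898668 in the free fraction, against 373500 in the 116 h library, and their part in these differences was not tested.

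In the day 7 poly(A) library 32 of 102 members (31.4%) were at RPKM 10 or more, as were 40.7% of all genes. Day 7 exceeded 116 h for 96 members, where 42.6% of all genes did so, and the limit of 2 set on the 116 h level by the choice favours such a difference. Median levels were 5.05, 35.65 and 13.2 on day 7, in L1 and in L2. In the day 7 library, 101 members were below their L1 level, and the exception was ASU_08339, with 62.4 on day 7 and 49.4 in L1. The floor set on the L1 level by the choice favours such a count. The L1 level exceeded the oocyte level for 57 members, and the choice favours this too, since its L1 floor was higher than its oocyte floor. Shares of all genes were not computed for these 2 comparisons. Across members, L1 and oocyte levels had a Spearman rho of -0.116, both having been used in the choice. Day 7 and L1 levels had a rho of 0.303.

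After L1 the members parted. In L2 larvae 54 (52.9%) were at RPKM 10 or more, as were 33.3% of all genes. The L1 floor of the choice could favour a high level in the next larval library. Listed at 0 were 9 members, and 4595 of all 15399 genes. Above their L1 level were 30 (29.4%), as were 27.1% of all genes, and 44 were at least 4-fold below it. The L1 floor of 20 set by the choice favours such a fall, and its share over all genes was not computed. Day 7 and L2 were then combined at the same limit of 10 in the poly(A) libraries. By day 7, 19 members were up and still up in L2, and 13 were up and under 10 in L2. Another 35 passed 10 only in L1 and were still up in L2, and 35 passed 10 in L1 but neither on day 7 nor in L2. Shares of all genes were not computed for this split. The 19 early and lasting members had medians of 15.2 on day 7, 53.0 in L1 and 92.6 in L2. The 13 early and transient members had medians of 19.0 on day 7, 36.6 in L1 and 2.1 in L2. The 35 late and lasting members had 4.0, 32.9 and 28.6. The 35 members under 10 on day 7 and in L2 had 1.5, 35.3 and 2.0, after a median of 32.3 in the oocyte. In the middle gradient fraction of day 7 these 35 had a median of 11.5 RPKM, above their day 7 poly(A) median. With the day 7 limit raised to RPKM 20, 11 members were early.

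Beside the members, 18.2% of the cleared genes (127 of 697) and 37.9% of the genes new in L1 (129 of 340) reached 10 in L2. Genes new in L1 met the same gap and L1 conditions with an oocyte RPKM under 1. Their medians were 0.8 on day 7, 40.05 in L1 and 4.65 in L2, where the members had 5.05, 35.65 and 13.2. All genes had 4.6, 8.8 and 4.8. These lists differ by construction in the oocyte or L1 libraries, and no difference between them was tested.

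ASU_01617 had an RPKM of 2.3 on day 7, 245.1 in L1 and 36.1 in L2, after 44.9 in the oocyte. ASU_07739 had 61.6 on day 7, 228.0 in L1 and 92.6 in L2, after 11.2 in the oocyte. ASU_03780 had 16.8 on day 7, 157.1 in L1 and 1.8 in L2, after 16.9 in the oocyte. The 3 therefore peaked together in L1 and differed both before and after it. ASU_14546 and ASU_15406 were highest in L2: ASU_14546 had 37.4 on day 7, 111.1 in L1 and 389.8 in L2, and ASU_15406 had 18.4, 97.4 and 339.6.

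**Figure D3:**
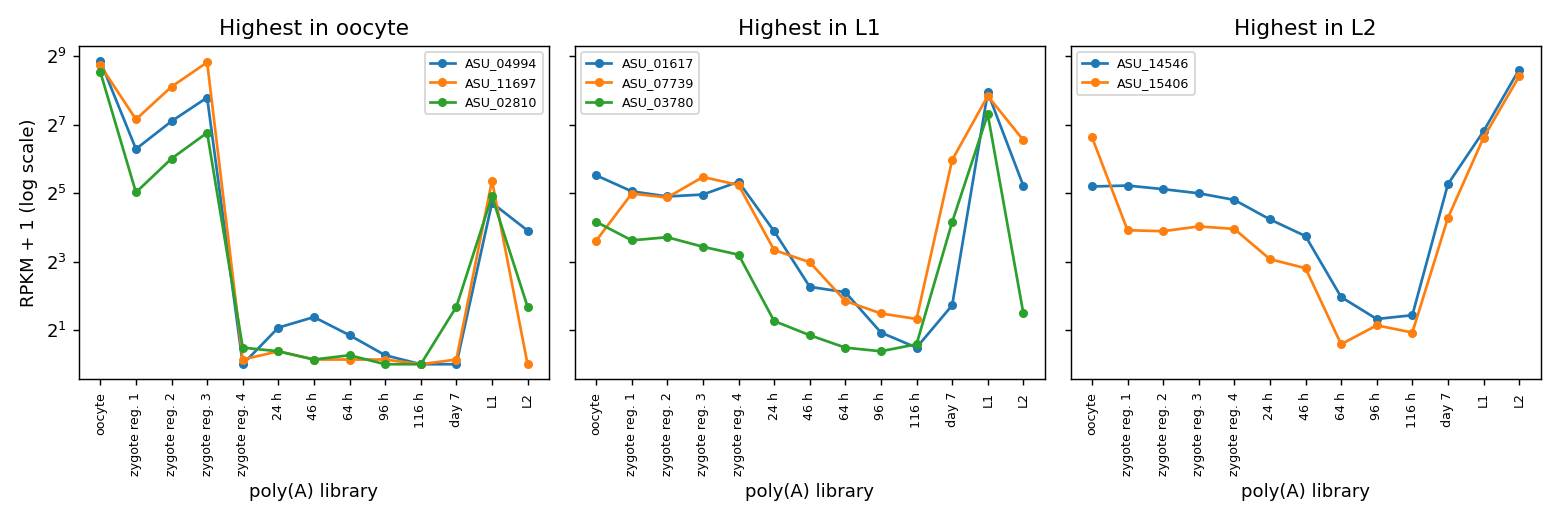
RPKM + 1 on a log scale in the 13 poly(A) libraries for the 3 members highest in the oocyte, the 3 highest in L1 and the 2 highest in L2, 1 line each. The oocyte group is at 0.4 or less in uterus region 4 after 107.7 to 451.6 in region 3, the L1 group peaks at 157.1 to 245.1 in L1, and the L2 pair is highest in the last library.

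There were 14 members at RPKM 100 or more in L2, a group formed after the values were seen and not tested. Their medians were 65.5 in the oocyte, 1.0 at 96 h and 116 h, 11.65 on day 7, 58.4 in L1 and 175.5 in L2, and those of the other 88 members were 30.8, 0.8, 0.5, 4.1, 34.75 and 8.15. On day 5 their medians were 12.55 RPKM in the heavy, 4.25 in the middle and 7.7 in the free fraction, beside 1.6, 2.1 and 1.0 for the other 88. On day 7 they were 88.0, 68.2 and 55.0, beside 11.7, 22.4 and 5.05. In the day 5 gradient 13 of these 14 members had a heavy value above their middle value, as did 27 of the other 88. Several of them carry neighbouring identifiers: 7 of the 14 lie within 2 numbers of another member, among them ASU_14542, ASU_14544, ASU_14546 and ASU_14547. In the whole group 16 members have such a neighbour. Whether these are near-identical copies that share reads was not tested, so their separate levels are uncertain.

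Poly(A) and gradient values of a stage were set side by side with the mean RPKM of the 3 fractions as the gradient value. The amount of RNA in each fraction is not known and the 3 were weighted alike. The mean is therefore not a measured RNA level of the stage, and a single fraction can set it. Before the gap they were close, with a median member difference of 0.05 on the log2(RPKM + 1) scale for day 0 minus region 4 and 0.20 for day 1 minus 24 h, where all genes had -0.10 and -0.20. On day 7 the members stood at a median of 17.7 RPKM in the gradient against 5.05 in the poly(A) library, and the median difference was 1.51, against 0.36 for all genes. The gradient value was higher for 95 of 102 members (93.1%) and for 67.7% of all genes. It was at least 4-fold higher on RPKM + 1 for 34 of them (33.3%), where 5.69% of all genes passed that limit. Genes new in L1 had a median difference of 1.54 with 34.7% past the limit, and cleared genes that did not return had 0.65 with 10.9%. Column sums on day 7 were 466749 RPKM in the heavy, 705936 in the middle and 503595 in the free fraction, against 344333 in the poly(A) library, and their part in the difference was not tested. Of the 75 members at RPKM 10 or more in the middle fraction of day 7, 44 were under 10 in the day 7 poly(A) library. Across members, day 7 gradient and day 7 poly(A) values had a Spearman rho of 0.684, and day 7 gradient and L1 values 0.483. Whether the day 7 gradient and the day 7 poly(A) library were made from embryos of the same batch or exact age was not tested.

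**Figure D4:**
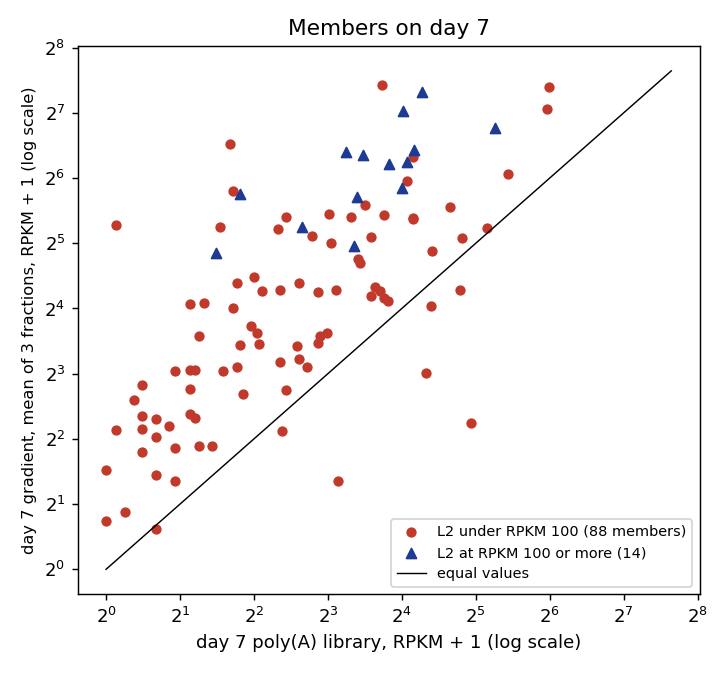
Mean RPKM + 1 of the 3 day 7 gradient fractions against RPKM + 1 of the day 7 poly(A) library, both on log scales, 1 point per member; triangles are the 14 members at RPKM 100 or more in L2 and the line marks equal values. Of 102 points 95 lie above the line, with member medians of 17.7 in the gradient and 5.05 in the poly(A) library.

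Between days 5 and 7 the members came back in all parts of the gradient. The median was 15.45 RPKM in the heavy, 26.7 in the middle and 5.9 in the free fraction on day 7, against 1.9, 2.5 and 1.2 on day 5. All 3 fractions were higher on day 7 than on day 5 for 83 of 102 members (81.4%) and for 19.9% of all genes. At least 4-fold higher on RPKM + 1, with RPKM 10 on either day, were 54 members in the heavy fraction, against 4.25% of all genes. In the middle fraction 67 members were, against 6.22% of all genes, and in the free fraction 30 were, against 3.23% of all genes. Genes new in L1 met the same rule in 34.7%, 43.8% and 23.5% of cases in the heavy, middle and free fractions, and cleared genes that did not return in 5.45%, 9.90% and 3.87%. The limit set at 116 h by the choice, at the same stage as day 5, favours such a rise over that of all genes. Column sums were lower on day 7 than on day 5 in each fraction. With the fraction columns scaled by quantiles or by median ratios, alternatives chosen after the data were seen, the member counts were 53 and 55 in the heavy fraction, where 4.33% and 4.70% of all genes were called. They were 48 and 53 in the middle fraction, with 3.99% and 3.86% of all genes, and 32 and 39 in the free fraction, with 4.24% and 4.69%.

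Position in the gradient differed between days. The median member difference of the heavy minus the free fraction on log2(RPKM + 1) was -0.85, -1.02, -1.07, 0.35 and 0.92 at days 0, 1, 3, 5 and 7. Over all genes the median differences were -0.22, -0.14, 0.0, 0.46 and 0.53, so members lay below all genes on days 0 to 5 and above them on day 7 on the deposited scale. Heavy exceeded free for 28, 28, 14, 66 and 86 of 102 members at those times, which is 27.5%, 27.5%, 13.7%, 64.7% and 84.3%. Of all genes 31.5%, 38.8%, 42.0%, 58.5% and 61.9% did so. The sign on the later days depended on the scale of the columns. With quantile normalization, chosen after the data were seen, member medians were -0.43, -1.13, -1.41, -0.51 and 0.13, while all genes lay between -0.01 and 0.05. With median-ratio scaling, also chosen then, member medians were -0.79, -1.30, -1.64, -0.72 and -0.12, against -0.18, -0.33, -0.34, -0.04 and 0.0 for all genes. Members thus lay below all genes on days 0, 1, 3 and 5 on each of the 3 scales, and on day 7 above them on 2 of the 3. In all 3 the member median was lowest on day 3 and highest on day 7. Cleared genes that did not return had -0.83, -0.91, -0.96, 0.09 and 0.25. The middle fraction was the highest of the 3 for 80.4%, 74.5%, 74.5%, 44.1% and 67.6% of members at days 0, 1, 3, 5 and 7, and for 70.9%, 59.3%, 61.2%, 52.6% and 69.8% of all genes, so a middle position was common throughout the table.

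**Figure D5:**
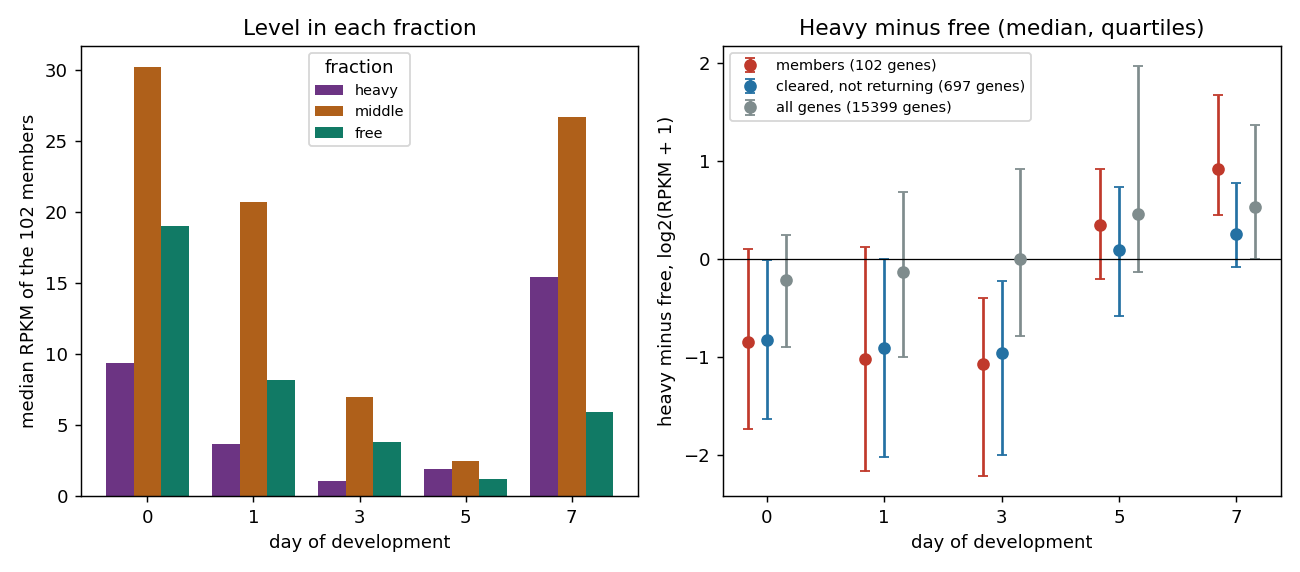
Left, median RPKM of the 102 members in the heavy, middle and free fractions by day, with bars from 0. Right, median heavy minus free difference on log2(RPKM + 1) with lower and upper quartiles for members, cleared genes that did not return and all genes; member medians are -0.85, -1.02, -1.07, 0.35 and 0.92 at days 0, 1, 3, 5 and 7 as deposited, and under other scalings of the columns the day 5 median is below 0 (both tried) and the day 7 median is -0.12 (median-ratio scaling).

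A fit with limma over the 15 fraction columns, with day and fraction as terms, asked which genes differed between fractions on average over the 5 days. Its p-values measure the spread between days, since each day had 1 gradient. Of 101 members that passed the filter (RPKM 1 in at least 2 fractions), 11 lay toward the heavy fraction relative to the free one at an adjusted p under 0.05, where 29.8% of all genes tested were. A further 22 lay toward the free fraction, a share near the 19.6% of all genes. Of the 11, 7 were higher in heavy on each of the 5 days, and of the 22, 11 were lower on each. The median difference was -0.49 for members and 0.12 for all genes. The heavy and free fractions on days 0, 1, 3, 5 and 7 held 4.6, 3.9, 2.3, 5.5 and 14.8 RPKM in heavy and 2.7, 0.8, 0.4, 0.5 and 1.7 RPKM in free for ASU_11679. Heavy was the higher on each day, with a difference of 1.59 ± 0.33 (SE, adjusted p = 0.000645, limma). ASU_10631 likewise was higher in heavy by 1.45 ± 0.31 (SE, adjusted p = 0.000725, limma). ASU_00975 held 17.1, 2.7, 0.0, 1.0 and 1.1 RPKM in heavy and 121.5, 65.7, 46.2, 7.1 and 3.5 RPKM in free on the 5 days. It was lower in heavy on each day, by a difference of -3.12 ± 0.48 (SE, adjusted p = 4.57e-05, limma). ASU_06644 had a difference of -2.78 ± 0.36 (SE, adjusted p = 1.41e-05, limma).

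These counts moved with single gradients. The number of members higher in heavy was 7 without the day 1 or the day 7 gradient, with 28.3% and 27.4% of all genes. The number lower was 13, 10 and 9 without the gradient of day 0, 1 or 3, and 35 and 36 without that of day 5 or 7. The share of all genes lower was 15.6%, 13.1%, 12.5%, 20.6% and 23.4% in those fits. Scaling mattered as well: the median of all genes moved to -0.05 with quantile normalization and to -0.35 with median-ratio scaling, and the split of members between higher and lower became 11 to 47 and 8 to 54. Over all genes the split between higher and lower calls was 3699 to 3740 and 3042 to 5308 under those scalings, against 4097 to 2693 as deposited.

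In the same fit 48 members were higher in the middle than in the free fraction, where 54% of all genes were, and 2 were lower, where 2.4% of all genes were. The median difference was 0.85 for members and 0.92 for all genes. ASU_12730 was higher in the middle fraction by 2.43 ± 0.42 and ASU_03692 by 2.30 ± 0.37 (SE, adjusted p = 7.01e-05 and 2.93e-05, limma). The 2 that were lower were ASU_00975, by -1.80 ± 0.48, and ASU_10580, by -0.77 ± 0.31 (SE, adjusted p = 0.00318 and 0.0398, limma), and the call of ASU_10580 was lost without the gradient of day 1, 3, 5 or 7. The general direction of middle minus free rests on the deposited scale. With quantile normalization the median of all genes was -0.03 and that of members -0.47, with 12 members higher (11.9%) and 19 lower (18.8%), where 22.7% of all genes were higher and 21.9% lower. With median-ratio scaling the medians were -0.26 and -0.57, with 8 members higher (7.92%) and 35 lower (34.7%), where all genes had 19.9% and 32.6%.

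Whether the tilt itself moved with time was asked by a slope of heavy minus free over the 5 days. No member passed an adjusted p under 0.05 with limma, and 0% of the 13767 genes tested did. At an unadjusted p under 0.05, 45 members had a slope upward and none downward, where 26.5% of all genes had one upward. The median slope was 0.27 per day for members and 0.17 for all genes on the log2 scale. The largest slope among members was that of ASU_11533, at 0.72 ± 0.16 per day (SE, adjusted p = 0.0551, limma), and other members shared its adjusted p. Without the day 0 gradient 21 members (20.8%) passed, against 3.26% of all genes, and without the day 7 gradient 15 (15.2%) did, against 20.5%. With genes at RPKM 10 in at least 2 fractions, 21 of 88 members (23.9%) passed, against 7.45% of all genes, so the absence of calls depended on those choices. Column sums of the heavy fractions of days 0, 1, 3, 5 and 7 were 236086, 252745, 373486, 631311 and 466749 RPKM, and with quantile normalization the median slope was 0.11 for members and 0.002 for all genes. With median-ratio scaling it was 0.12 and 0.02.

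Levels outside the 4 columns of the choice were tested in 6 libraries: poly(A) and gradient values of region 4 zygotes, 1-cell embryos and embryos of about 256 cells, with stage and preparation as terms. According to the submitters the 2 preparations of a stage count as replicates, but they were made differently, and the p-values measure the spread between preparations. For 1-cell embryos minus region 4 zygotes, no member of 99 tested passed an adjusted p under 0.05 with limma, and 0% of the 12765 genes tested did. At an unadjusted p under 0.05, 30 members were lower, where 9.18% of all genes were. The median difference was -0.85 for members and -0.01 for all genes. Both preparations were lower in 1-cell embryos for 82 of 102 members, where 34% of all genes were. Cleared genes that did not return were so in 84.1% of cases. The choice favours such falls over those of all genes, through its oocyte floor and its limits at 96 h and 116 h. Without a 256-cell library, 71 (poly(A) left out) or 72 (gradient left out) members passed as lower, as did 19.4% and 20.3% of all genes. With quantile normalization 3 members (3.03%) passed, against 0.627% of all genes, and with median-ratio scaling 8 (8.08%) did, against 2.09%. The fit had 2 residual degrees of freedom.

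For 256-cell minus 1-cell embryos members were called in both directions, at shares near those of all genes. Of 99 members tested, 20 were higher on day 7 than at 1 cell at an adjusted p under 0.05 with limma, where 18.4% of all genes were. Lower were 21, where 24.2% of all genes were. The median difference was -0.03 for members, -2.36 for cleared genes that did not return, 1.64 for genes new in L1 and -0.10 for all genes. ASU_08339 had RPKM 62.4 in the poly(A) library and 166.9 as the gradient value at 256 cells, against 7.4 and 6.5 at 1 cell. That is a rise of 3.70 ± 0.50 (SE, adjusted p = 0.00088, limma). ASU_02810 rose by 3.42 ± 0.87 (SE, adjusted p = 0.014, limma), but its poly(A) value was only 2.2, with fractions of 90.1, 109.3 and 72.7 RPKM on day 7 in heavy, middle and free. Its call was lost with a pseudocount of 5, without the filter, without the preparation term and when the 1-cell gradient was left out. ASU_11533 fell by 4.93 ± 0.43 (SE, adjusted p = 0.000138, limma) and ASU_00921 fell by 4.24 ± 0.54 (SE, adjusted p = 0.000644, limma). ASU_00921 had 1.3 and 7.33 RPKM in the poly(A) and gradient values at 256 cells, against 84.5 and 79.1 at 1 cell, and it stood at 35.5 RPKM in L1. Of members higher, 49 passed when the 256-cell poly(A) library was left out and 10 when the 1-cell gradient was, and of members lower, 49 passed when the 256-cell gradient was left out and 14 when the 1-cell poly(A) library was. All genes had 32.7% and 8.38% higher in the first pair of fits and 43.5% and 13.8% lower in the second.

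Poly(A) and gradient values went opposite ways for 6 members between 1 cell and 256 cells, where 0.773% of all genes did so. Of genes new in L1 3.53% did so, and of cleared genes that did not return 2.01%. The poly(A) level on day 7 was at least 2-fold lower and the gradient value, an unweighted mean of fractions, at least 2-fold higher on RPKM + 1. ASU_01617 had 2.3 RPKM in the poly(A) library of day 7, against 13.8 at 24 h, and 54.87 RPKM as the gradient value of day 7, against 11.9 on day 1. Its day 7 fractions held 11.2 RPKM in heavy, 144.4 in middle and 9.0 in free, and its L1 level was the highest of all members. No member went the other way.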

How the data were processed

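The authors deposited RPKM values, which are already scaled for gene length and library depth, in 1 table with 15399 identifiers and 28 columns (13 poly(A) libraries and 15 gradient fractions). Bowtie 0.12.7 is named per the submitters' processing notes. The genome build is not given in the sources used here, nor are the annotation, the counting tool and the borders of the gradient fractions. Columns were matched to samples by name, with the oocyte and 64 h columns taken as poly(A) by inference, and 10 samples were not analysed here. Depth is unknown, so no counting interval is given.

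The members, comparison lists and tests were chosen with earlier results of these data known. Deposited values were put on the log2(RPKM + 1) scale and fitted with limma (3.58.1, R 4.3.3) with an intensity trend, for genes at RPKM 1 in at least 2 libraries. P-values were adjusted by Benjamini-Hochberg across each whole fit, and 0.05 was the threshold. This scale understates changes of low genes. The fraction fit had 15 columns and 8 residual degrees of freedom, the slope fit 3 and the fit over 6 libraries 2. The fraction fit and the fit over 6 libraries were tested on simulated data with a fixed noise. No simulated gene had a heavy minus free difference that moved over the days. Whether the slope fit finds such a gene was therefore not tested. The labels name no replicates of a stage. Named members are the 3 highest in the oocyte, the 3 in L1, the 2 in L2, the 2 on day 7 and the 2 in a day 5 fraction, the genes nearest each limit, and per test the 2 largest called differences each way that had the same sign on all 5 days or in both preparations. Other members named were chosen after their values were seen. Alternatives were other pseudocounts, filters, scalings and terms, and leaving out each library or gradient.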

Additional observations from a re-analysis of the deposited data

Results flagged for a closer look

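Between 1-cell embryos and embryos of about 256 cells, 6 members moved in opposite directions in the 2 preparations, with the poly(A) level at least 2-fold lower and the gradient value at least 2-fold higher on RPKM + 1. The share was 5.88% of members, against 0.773% of all genes (119 genes), and no member and 6 genes overall did the reverse. It was 3.53% of genes new in L1 and 2.01% of cleared genes that did not return. ASU_01089 had 0.1 RPKM in the day 7 poly(A) library, against 1.8 at 24 h, and 37.87 RPKM in the day 7 gradient, against 2.57 on day 1. Both of its poly(A) values were thus low. ASU_00082, ASU_01617, ASU_01869, ASU_10175 and ASU_10456 were the others. ASU_00082, with a log2 difference of -1.0 in poly(A), and ASU_10456, with 1.001 in the gradient value, lay at the 2-fold limit. The difference between preparations was not tested, since each has 1 library per stage.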

How the results depend on the processing

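The labels give no replicate numbers to serve as a block. Fractions of a day came from 1 gradient, so day was a term of the fraction fit and the slope fit used differences within each day. Preparation was a term of the fit over 6 libraries. As deposited, 11 members were higher and 22 lower in heavy minus free, 48 higher and 2 lower in middle minus free, none passed for the slope or for 1 cell minus region 4, and 20 were higher and 21 lower in 256-cell minus 1-cell embryos. With a pseudocount of 5, 5 members were higher in heavy minus free. With quantile normalization or median-ratio scaling, 47 or 54 were lower in heavy minus free, 12 or 8 were higher and 19 or 35 lower in middle minus free, and 3 or 8 were lower at 1 cell than in region 4. With a filter of RPKM 10, 21 members had a slope upward. With 8 libraries, 1 member was lower at 1 cell. For 256-cell minus 1-cell embryos 11 were higher without a filter, 9 were higher without a preparation term, and 7 were lower with the heavy fraction as the gradient value. Members numbered 50 with quantile normalization, 54 with a gap limit of 1 and 44 with an L1 limit of 40. A 2-fold loss limit gave 40 lost by region 4, and a day 7 limit of RPKM 20 gave 11 early members. The members' median heavy minus free difference turned to -0.51 on day 5 with quantile normalization, and to -0.72 on day 5 and -0.12 on day 7 with median-ratio scaling, settings chosen after the data were seen. Leaving out 1 gradient or library gave 7 to 11 higher and 9 to 36 lower in heavy minus free, 34 to 48 higher and 1 to 3 lower in middle minus free, and 0 to 21 upward and 0 to 0 downward slopes. It gave 0 to 1 higher and 0 to 72 lower at 1 cell than in region 4, and 10 to 49 higher and 14 to 49 lower in 256-cell minus 1-cell embryos, where a stage left with 1 library is assumed to vary like the others. The cause of these shifts was not tested. No named member's difference changed sign under the alternatives run, and calls were lost for ASU_10580 (middle minus free) in 4 of 11 and for ASU_02810 (256-cell minus 1-cell) in 4 of 16. Unknown depth and 1 library per stage limit all of these values.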
